A study of Mus musculus domesticus and Mus musculus domesticus x Mus musculus castaneus and Mus musculus castaneus with 10 samples.

Results

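The data are RNA-seq counts of 10 immediate early genes (Egr1, Egr2, Fos, Fosb, Junb, Ier2, Atf3, Nr4a1, Arc and Dusp1) in undifferentiated pluripotent stem cells of the CAST/EiJ strain (hereafter CAST), a *Mus musculus castaneus* background. The genes were chosen by symbol from a list drawn up once the values of these libraries were known, because some of them stood far apart between the libraries. All 10 were found among the 26808 genes of the count table, and all 10 had at least 10 counts over both libraries. Since the difference between the libraries chose the genes, every ratio below is a description without a test.

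The cells came from a single induced pluripotent line, made from embryonic fibroblasts with retroviral Oct4, Sox2 and Klf4. The labels name no treatment and no further allele, and the medium contained serum and the cytokine LIF. They were grown on irradiated fibroblast feeder cells, which were depleted before RNA extraction. The 2 libraries, replicate 1 and replicate 2, belong to one group, and no condition of the design separates them. Each has its own batch entry in the labels, so batch and replicate cannot be told apart, and the sources do not say whether they came from separate cultures. Not analysed here were 4 libraries of 129S6/SvEv and 4 of the 129CAS hybrid.

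Immediate early genes are transcribed within minutes of a stimulus such as a growth factor, serum, stress or handling, without new protein synthesis. The factors that switch them on, chiefly serum response factor (SRF) with its ternary complex partners and CREB, are already in the cell and are activated by MAP kinases or by calcium and cyclic AMP. Many of the products are transcription factors that carry the response on to later genes, others shut the signal off, and both the mRNAs and the proteins are short-lived. In serum-grown stem cells the MAP kinase pathway is active downstream of FGF4 and LIF, and immediate early genes are widely used as a readout of it.

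The libraries held 14460393 counts in replicate 1 and 13728098 in replicate 2. Levels are given as counts per 1000000 counts of a library (CPM), with an exact Poisson 95% interval that covers counting error only. At this depth 3 counts, equal to 0.207 CPM in replicate 1 and 0.219 CPM in replicate 2, were treated as the limit of detection. Of the pluripotency markers, 8 were listed and all were detected, with a summed level of 4130 CPM in replicate 1 and 3586 CPM in replicate 2. The sum of 8 neuronal markers was 215 CPM and 168 CPM, nearly all of it from Stmn2 (124 and 117 CPM) and Tubb3 (81.2 and 44.2 CPM). The synaptic genes Syt1 and Snap25 are named after their values were seen. Syt1 was at 0 in both libraries, and Snap25 had 7 and 2 counts.

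The early genes fell into a high and a low range of ratios. Fosb, Egr1, Egr2, Atf3 and Fos were at least 4-fold higher in replicate 1, whereas Dusp1, Ier2, Junb, Nr4a1 and Arc were within 2-fold. No member was at least 2-fold higher in replicate 2. Of all 13824 genes with at least 10 counts, 4.98% were at least 2-fold higher in replicate 1, 4.13% were at least 2-fold higher in replicate 2 and 0.499% were at least 4-fold higher in replicate 1. When the genes were limited to those averaging 5 CPM or more, the first share was 3.18%. The members had a median log2 ratio (replicate 1 to replicate 2) of 1.44, beside 0.00436 over all genes tested. These ratios used edgeR's TMM scaling and a pseudocount of 0.5 CPM, and every count of genes past or within 2-fold or 4-fold, here and for the lists below, was made on them. Folds printed for single genes are ratios of scaled counts without a pseudocount, with an exact binomial 95% interval for counting error only. With 1 library on each side there is no replicate check of any ratio.

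**Figure D1:**
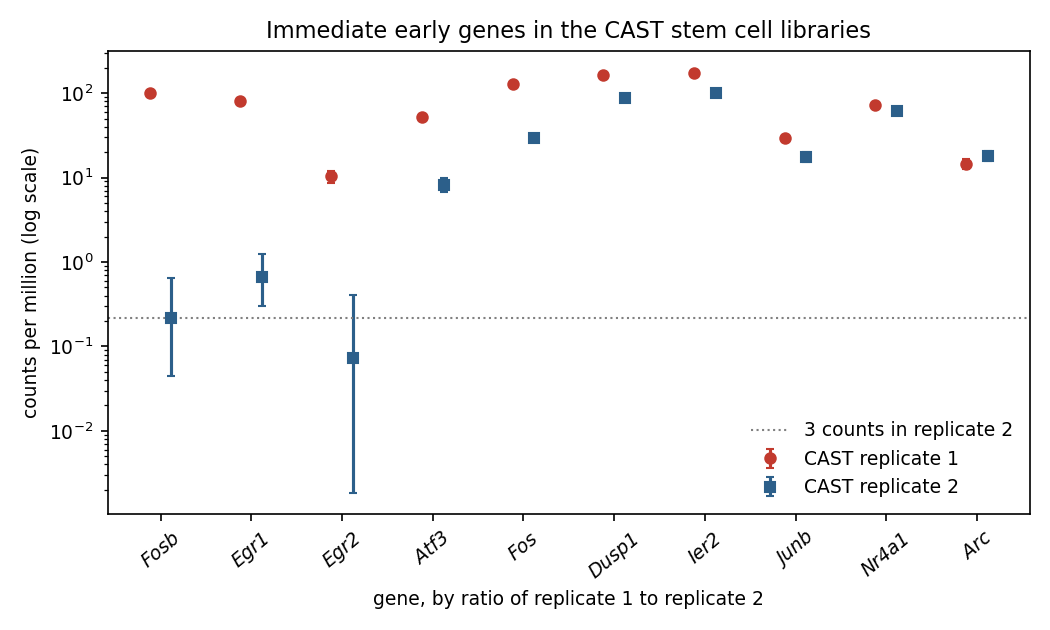
Level in CPM (log scale) of the 10 immediate early genes in CAST replicate 1 (circles) and replicate 2 (squares), ordered by ratio, with exact Poisson 95% intervals as bars and a dotted line at 3 counts in replicate 2. Fosb, Egr1 and Egr2 lay at 1.24 CPM or less, upper interval bounds included, in replicate 2 and between 10.3 and 99.2 CPM in replicate 1. Circles and squares were within 2-fold for Dusp1, Ier2, Junb, Nr4a1 and Arc.

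The Fos proteins are the partners that pair with Jun proteins to form the transcription factor AP-1. Fosb (ENSMUSG00000003545, chromosome 7 of GRCm38, 19302696 to 19310051, minus strand) had 1434 counts in replicate 1 and 3 in replicate 2. Its level was 99.2 CPM (94.1 to 104 CPM) in replicate 1 and 0.219 CPM (0.0451 to 0.639 CPM) in replicate 2, which is the limit of detection. The fold was 436 with a counting interval of 149 to 2115, so that its size is poorly fixed. The log2 ratio with the pseudocount was 7.08, a smaller fold than the lower bound of that interval. That log2 ratio was the largest of all genes tested.

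Fos (ENSMUSG00000021250, chromosome 12, 85473890 to 85477273, plus strand), the founding member of the family, had 129 CPM (123 to 135 CPM) in replicate 1 and 29.7 CPM (26.9 to 32.7 CPM) in replicate 2, from 1863 and 408 counts. The fold was 4.16 (3.74 to 4.64) and the log2 ratio 2.04, which ranked 63 of 13824 genes. Fos was therefore well detected in both libraries, while Fosb was detected in replicate 1 and was at the limit in replicate 2. The other family members are named here by family after their values had been seen. Fosl2 had 25.9 CPM in replicate 1 and 8.81 CPM in replicate 2, and Fosl1 had 1.59 and 1.24 CPM.

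Junb (ENSMUSG00000052837, chromosome 8, 84974484 to 84978718, minus strand) encodes a Jun partner in AP-1. It had 29.4 CPM (26.7 to 32.3 CPM) in replicate 1 and 17.6 CPM (15.5 to 20.0 CPM) in replicate 2, a fold of 1.60 (1.36 to 1.88). The counting intervals of the levels did not overlap, yet the ratio was within 2-fold. Its relatives, again named by family after their values had been seen, lay on either side. Jun had 88.7 and 16.8 CPM, a fold of 5.08 (4.41 to 5.87). Jund had 130 and 124 CPM, a fold of 1.01 (0.944 to 1.08).

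The Egr genes encode zinc finger factors that bind GC-rich sites, and Egr1 is a direct target of SRF and its ternary complex partners downstream of ERK. Egr1 (ENSMUSG00000038418, chromosome 18, 34859823 to 34864984, plus strand) had 1181 counts in replicate 1 and 9 in replicate 2. The levels were 81.7 CPM (77.1 to 86.5 CPM) and 0.656 CPM (0.300 to 1.24 CPM). The fold was 120 (62.8 to 262) and the log2 ratio 6.11, the second largest of all genes tested. In replicate 2 Egr1 was low but above the limit of detection.

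Egr2 (ENSMUSG00000037868, chromosome 10, 67535475 to 67542188, plus strand), known as a regulator of hindbrain patterning and of myelination, had 149 counts in replicate 1 and 1 in replicate 2. Its level in replicate 1 was 10.3 CPM (8.72 to 12.1 CPM), the lowest of the 10 genes in that library, and 0.0728 CPM (0.00184 to 0.406 CPM) in replicate 2. The fold was 136 with a counting interval of 24.0 to 5398. The log2 ratio with the pseudocount was 4.21, ranked 4, and is a smaller fold than the lower bound of that interval. The pseudocount shrinks ratios over few counts, so Egr2 ranks below Egr1 although its fold exceeds the 120 of Egr1. Egr2 was not detectable in replicate 2 at this depth. The related Egr3, named by family after its values had been seen, had 18 counts and 5 counts, or 1.24 and 0.364 CPM, with a log2 ratio of 0.98 and a fold without a pseudocount of 3.28 (1.17 to 11.3).

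Atf3 (ENSMUSG00000026628, chromosome 1, 191170296 to 191218039, minus strand) encodes a CREB-related repressor that is induced by many stresses as well as by serum. It had 52.6 CPM (49.0 to 56.5 CPM) in replicate 1 and 8.23 CPM (6.78 to 9.90 CPM) in replicate 2. The fold was 6.14 (5.03 to 7.55) and the log2 ratio 2.55, ranked 23. Atf3 was thus detected in both libraries and stood between Fos and the members Egr1 and Egr2 in its ratio.

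Nr4a1 (ENSMUSG00000023034, chromosome 15, 101254269 to 101274795, plus strand) encodes the orphan nuclear receptor Nur77. It had 71.9 CPM (67.5 to 76.4 CPM) in replicate 1 and 61.1 CPM (57.0 to 65.4 CPM) in replicate 2, a fold of 1.13 (1.03 to 1.24). The ratio was within 2-fold, the closest to 1 among the members. Its relatives are named by family after their values had been seen. Nr4a2 had 2.49 and 1.60 CPM, and Nr4a3 had 20 counts and 2 counts, a fold of 9.11 with a counting interval of 2.21 to 80.4.

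Arc (ENSMUSG00000022602, chromosome 15, 74669083 to 74672570, minus strand), best known for its role at the synapse, was the only member with a higher level in replicate 2. It had 14.4 CPM (12.5 to 16.5 CPM) in replicate 1 and 17.99 CPM (15.8 to 20.4 CPM) in replicate 2, from 208 and 247 counts. Replicate 2 was 1.30-fold higher (1.08 to 1.57), and the counting intervals of the levels overlapped. The log2 ratio was -0.37, ranked 11060 of 13824.

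Ier2 (ENSMUSG00000053560, chromosome 8, 84661331 to 84662852, minus strand) encodes a nuclear protein of the immediate early response. It was the most abundant member in both libraries, at 172 CPM (165 to 179 CPM) in replicate 1 and 101 CPM (95.7 to 106 CPM) in replicate 2. The fold was 1.63 (1.53 to 1.75), ranked 1376.

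Dusp1 (ENSMUSG00000024190, chromosome 17, 26505590 to 26562128, minus strand) encodes a phosphatase that removes the activating phosphates from MAP kinases and so ends the signal that induces it. It had 163 CPM (156 to 169 CPM) in replicate 1 and 86.8 CPM (82.0 to 91.9 CPM) in replicate 2, second to Ier2 in each. The fold was 1.80 (1.68 to 1.93) and the log2 ratio 0.84, the largest among the members within 2-fold.

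**Figure D2:**
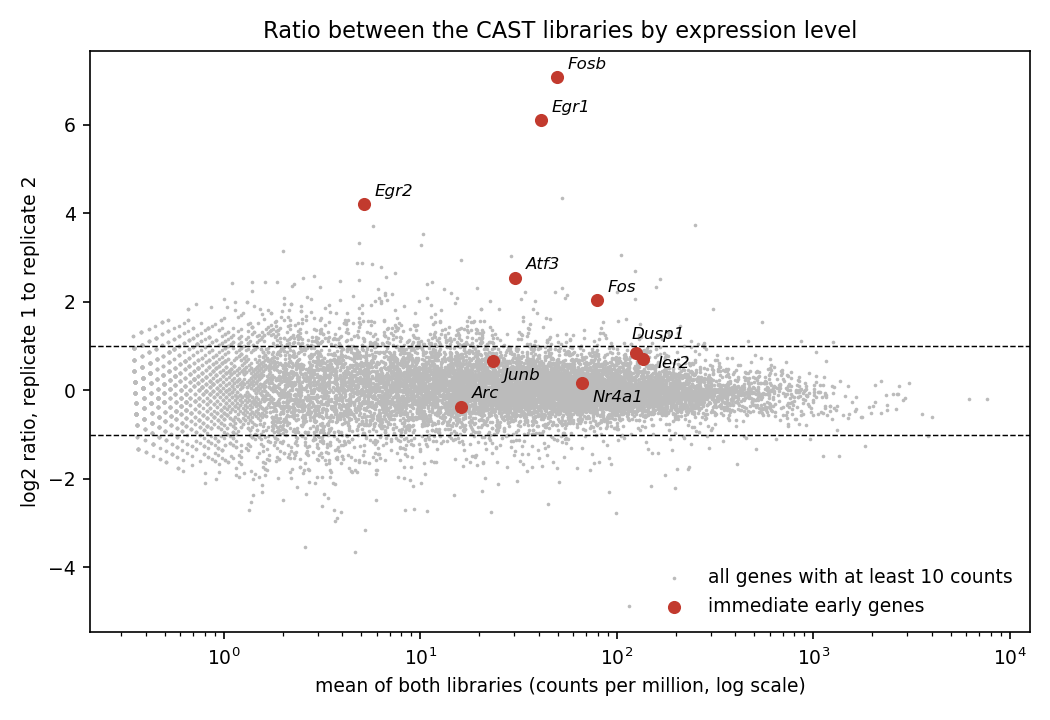
Log2 ratio of CAST replicate 1 to replicate 2 against the mean level of both libraries (CPM, log scale) for 13824 genes (grey) and the 10 immediate early genes (red), with dashed lines at 2-fold. Fosb and Egr1 lay above every other gene, at 7.08 and 6.11, while Arc, Nr4a1, Junb, Ier2 and Dusp1 lay between the dashed lines.

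Together the 10 genes had a summed level of 573 ± 353 CPM (SD, n = 2), with 823 CPM in replicate 1 and 323 CPM in replicate 2. The libraries lay so far apart that the mean stands for neither of them. Fosb held 12.1% of the members' sum in replicate 1 and 0.0676% in replicate 2, and Egr1 held 9.93% and 0.203%. Ier2 and Dusp1 held 20.9% and 19.8% in replicate 1 and 31.2% and 26.8% in replicate 2. The make-up of the list thus differed between the libraries as well as its total.

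Levels of different genes were compared per kilobase of transcript. In replicate 1 the order was Ier2 (113 CPM per kilobase), Dusp1 (81.7), Fos (61.1), Nr4a1 (28.1), Atf3 (26.5), Fosb (26.2), Egr1 (18.2), Junb (16.2), Arc (4.71) and Egr2 (3.48). The counting intervals of Nr4a1 and Atf3, of Atf3 and Fosb, and of Egr1 and Junb overlapped, so these neighbours were not separated. In replicate 2 the order was Ier2 (66.3 CPM per kilobase), Dusp1 (43.6), Nr4a1 (23.9), Fos (14.1), Junb (9.74), Arc (5.89), Atf3 (4.15), Egr1 (0.146), Fosb (0.0578) and Egr2 (0.0246). Egr1 and Fosb, and Fosb and Egr2, were not separated there. Ier2 and Dusp1 led and Egr2 came last in both libraries, while Fosb and Egr1 stood in the middle of the order in replicate 1 and near its end in replicate 2.

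The members share features that played no part in their choice. Most of their principal transcripts are compact. In the principal transcript of the GENCODE annotation, 9 of the 10 had 4 or fewer exons, as did 20.6% of 13117 protein-coding genes with at least 10 counts, and Junb and Ier2 had 1 exon each. The median genomic span of the transcript was 3903 bases for the members and 22628 bases for all these genes, whereas the medians of the 3′ untranslated region (UTR) were close, at 1000.5 and 1000 bases. Nr4a1 was the exception by exons, with 8 exons over 20527 bases. The positions given above are those of whole genes. For Atf3 and Dusp1 they are much longer than the principal transcripts, which span 13045 and 2930 bases.

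AU-rich elements in the 3′ UTR are known to shorten the life of many early mRNAs. The pentamer ATTTA and the nonamer TTATTTATT, which holds the pentamer, were searched on the sense strand. The pentamer was found in the 3′ UTR of 8 of the 10 genes and was absent from those of Ier2 and Arc. No share over all genes was taken for the whole 3′ UTR, so this count is a description only. The nonamer was found in Fos, at base 655 after the stop codon, and in Dusp1, at bases 103 and 392. Within the last 400 bases of the 3′ UTR, 6 members held the pentamer and 2 the nonamer. Of 9775 protein-coding genes with a 3′ UTR of at least that length, 51.2% and 2.71% did. For the pentamer, the members' share of 60% was thus near that of all these genes. The matches are descriptions of the letters in the C57BL/6J reference and not of bound sites. The sites are shown with 10 bases on either side, with the nonamer in capitals, because Fos and Dusp1 are the members that carry it.
Fos, base 655: tgttttcaatTTATTTATTaagatggatt
Dusp1, base 103: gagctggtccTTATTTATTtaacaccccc
Dusp1, base 392: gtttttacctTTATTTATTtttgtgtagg

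**Figure D3:**
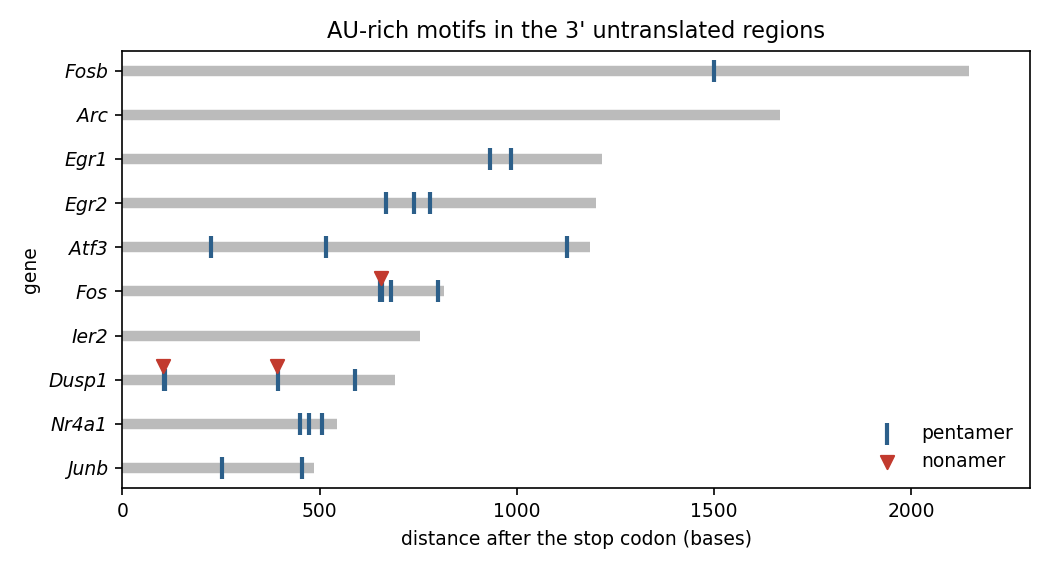
Length of the 3′ UTR of the 10 genes (grey bars, in bases after the stop codon) with the pentamer (blue ticks) and the nonamer (red triangles). The nonamer appears in Fos and Dusp1, Ier2 and Arc have no motif, and Fosb has the longest 3′ UTR, 2145 bases, with 1 pentamer.

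No run of 75 bases in a member's principal transcript recurred in any other annotated gene, so none of the members has a near-identical copy there. Junb, Atf3 and Dusp1 overlap a listed gene on the opposite strand, but 0 bases of their principal transcripts lie in exons of such a gene.

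The rest of the early response was described by lists that were written with earlier results of these data in view. The counts of each list below stand beside the shares over all 13824 genes tested. Of those, 4.98% were at least 2-fold higher in replicate 1 and 4.13% in replicate 2. Of 12 other early transcription factors with at least 10 counts, 5 were at least 2-fold higher in replicate 1, 0 in replicate 2 and 7 were within 2-fold, with a median log2 ratio of 0.82. Npas4, among the 5 and named after its values were seen, had no count in replicate 2, and 4 remained with it set to 3 counts there. Myc, a growth regulator, had 29.2 CPM in replicate 1 and 3.21 CPM in replicate 2, a log2 ratio of 2.95. Jun had 2.31 and Nr4a3 1.52. At the other end were Maff, a small Maf factor, at -0.91, with 10.4 and 19.2 CPM, Jund at 0.01 and Klf10, a TGF-beta-inducible factor, at 0.10.

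Of 13 other early response genes, 5 were at least 2-fold higher in replicate 1, 2 in replicate 2 and 6 were within 2-fold, with a median of 0.67. Ccn1 and Ccn2, secreted matrix-associated proteins and known targets of YAP and SRF, had log2 ratios of 3.05 and 2.23, and Trib1, a pseudokinase, had 1.63. Ccn1 had 188 CPM in replicate 1 and 21.4 CPM in replicate 2. Ier3, a survival factor, and Gadd45b, a stress sensor, went the other way at -2.05 and -1.91, with 12.2 and 50.1 CPM for Ier3 and 76.1 and 277 CPM for Gadd45b. Plk3, a stress-responsive kinase, had -0.76. The early genes as a whole therefore did not all share one direction. Npas4, with 11 counts, and Rgs2, with 10 and also named after its values were seen, had no count in replicate 2 and reached the minimum of 10 counts through replicate 1 alone, and each is among the 5 of its list. Set against 3 counts in replicate 2, their log2 ratios were 0.78 and 0.70 with the pseudocount, so that 4 genes of each list were at least 2-fold higher in replicate 1 and the medians were 0.73 and 0.67. Without the pseudocount these bounds were 1.74 and 1.60, the counts 5 and 5 and the medians 0.82 and 0.67.

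Feedback inhibitors of the pathway were described next. Of 10, 3 were at least 2-fold higher in replicate 1, 0 in replicate 2 and 7 were within 2-fold, with a median of 0.46. Dusp4 and Dusp6, MAP kinase phosphatases like Dusp1, had log2 ratios of 2.32 and 1.24, and Spry4, an inhibitor of receptor tyrosine kinase signalling, had 1.21. Spry2, named after its values were seen, was just under 2-fold at 0.99, and its fold without a pseudocount was 2.02. Dusp4 had 33.1 CPM in replicate 1 and 5.97 CPM in replicate 2. Nab1, a corepressor of Egr factors, had -0.02, Dusp2 0.08 and Spry1 0.15.

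Of 17 kinases and factors that act upstream, 1 was at least 2-fold higher in replicate 1, 0 in replicate 2 and 16 were within 2-fold, with a median of 0.08. That 1 of 17 is near the 4.98% of all genes tested that were at least 2-fold higher in replicate 1. The gene was the ternary complex factor Elk3, with 6.29 and 2.77 CPM and a log2 ratio of 1.00, at the cutoff itself. Srf had 194 and 100 CPM and a ratio of 0.89, and its coactivator Mrtfb had 0.88. Crtc2, a coactivator of CREB, had -0.98, the kinase Map2k1 -0.29 and the kinase Mapk3 -0.15.

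Of 10 cytoskeletal targets of SRF, 3 were at least 2-fold higher in replicate 1, 0 in replicate 2 and 7 were within 2-fold, with a median of 0.61. The smooth muscle genes Acta2, Tagln and Cnn1 had log2 ratios of 4.35, 2.08 and 1.18, and Acta2 had 101 CPM in replicate 1 and 4.30 CPM in replicate 2. Tpm1 had -0.02, Actb 0.18 and Myh9 0.41. The other genes with the largest ratio toward replicate 1, over 2 libraries and among genes averaging 5 CPM or more with over 3 counts per library, were Acta2 at 4.35, Thbs1, a matrix glycoprotein, at 3.74, Filip1l at 3.71, Cemip, a hyaluronan-binding protein, at 3.54, and Actg2, a smooth muscle actin, at 3.30.

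**Figure D4:**
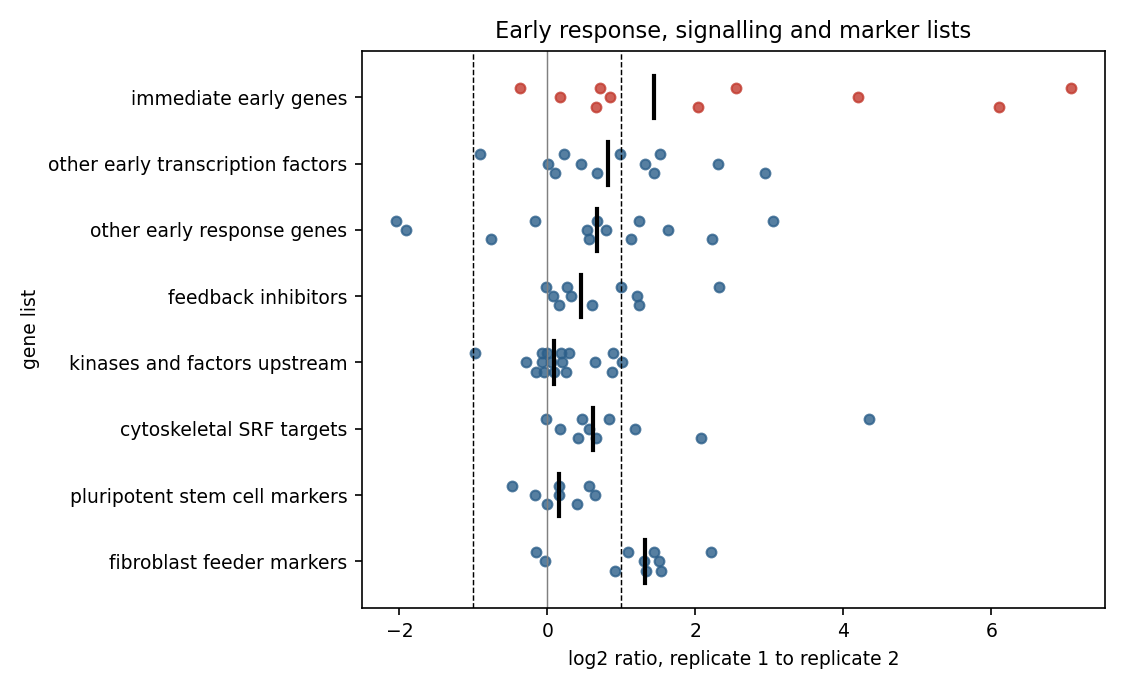
Log2 ratio of CAST replicate 1 to replicate 2 for each gene with at least 10 counts in the immediate early list (red) and in 7 other lists (blue), with the list median as a black bar and dashed lines at 2-fold. The immediate early genes ranged from -0.37 to 7.08, and the kinases and factors upstream had a median of 0.08.

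Markers of fibroblasts, the feeder cells of these cultures, were mostly higher in replicate 1 as well. Of 10, 7 were at least 2-fold higher in replicate 1, 0 in replicate 2 and 3 were within 2-fold, with a median log2 ratio of 1.31 beside 1.44 for the 10 immediate early genes and 0.00436 over all genes tested. Their summed level was 3483 CPM in replicate 1 and 1383 CPM in replicate 2. None was at 0. Fbn1, a microfibril protein, had 80.9 and 16.3 CPM, the largest log2 ratio of the list at 2.22. Col1a2, a collagen chain, and Lox, a collagen cross-linking enzyme, followed at 1.54 and 1.51. Col1a1, named after its values were seen, gave the most counts to the sum, with 1726 and 777 CPM and a log2 ratio of 1.09. At the other end Postn had a log2 ratio of 0.92, while Dcn had 3.25 and 3.21 CPM and Pdgfrb 6.15 and 6.63 CPM. Of the 8 pluripotency markers, 0 were at least 2-fold apart, with a median of 0.16. The macrophage markers had a sum of 18.9 and 31.4 CPM, most of it from Cd68, at 15.3 and 30.1 CPM. The list had no single direction, since of its 4 markers with at least 10 counts 1 was at least 2-fold higher in replicate 1 and 1, Cd68, in replicate 2, and the median log2 ratio was 0.78. The endothelial markers had a sum of 361 and 401 CPM, nearly all of it from Pecam1, which stem cells also express. The part of fibroblasts in the ratios of the early genes was not tested, and in such bulk RNA more cells of a type and more RNA per cell cannot be told apart.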

How the data were processed

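RNA-seq was used from 2 libraries of CAST stem cells. The authors deposited unscaled counts, 1 whole number per gene and library, by Ensembl identifier. The labels of these samples name TopHat2 2.1.1, SAMtools, HTSeq and GRCm38, whereas the paper's methods name STAR, the genome of the strain and removal of reads that map to more than 1 locus, so the pipeline behind the table and its strand setting are not settled. The sources also name different RNA kits. A further 7 columns of the table hold samples whose names are not in the list used here, and they were left out.

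Symbols, positions and transcripts came from GENCODE M21 (GRCm38), and 26807 of 26808 identifiers had a symbol. Effective library sizes came from edgeR 4.0.16 (TMM) in R 4.3.3. For ratios the pseudocount was 0.5 CPM, and genes under 10 counts over both libraries were left out. Alternatives were library totals, DESeq2 1.42.0 size factors, pseudocounts of 0.1 and 2 CPM, at least 1 count, a mean of at least 5 CPM, and each library left out. Intervals came from scipy 1.17.1 and figures from matplotlib 3.10.9, in Python 3.11.15.

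The members and the lists were chosen with earlier results of these data known. Named are all members, up to 3 genes at either end of each list, and the 5 other genes with the largest ratio among genes averaging 5 CPM or more with over 3 counts per library, and other genes where the text says that they were named after their values were seen. Of the list genes, Egr4, Csrnp1, Sik1, Spred2, Nanog and Dppa5a matched no symbol in the count table and were not analysed here. The 8 pluripotency markers are thus without Nanog and Dppa5a. Principal transcripts were taken by APPRIS tag, then length, and the 400-base window was set so that all members had one. No test was fitted, since 1 group of 2 libraries gives no comparison.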

Additional observations from a re-analysis of the deposited data

How the results depend on the processing

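The number of members at least 2-fold higher in replicate 1 was 5 under all 6 alternatives. Of these, the filters of at least 1 count and of a mean of at least 5 CPM kept all 10 members. Neither that number nor the members' median could therefore change under the filters. The share of all genes past that fold ran from 2.16% with a pseudocount of 2 CPM to 6.92% with 0.1 CPM. The members' median log2 ratio, 1.44, was 1.50 with library totals, a scaling that moved the median of all genes by 0.0552. It ranged from 1.41 to 1.45 under DESeq2 size factors and the alternative pseudocounts. No member's log2 ratio changed sign. With a pseudocount of 2 CPM, which acts on low counts, Fosb fell from 7.08 to 5.48, Egr1 from 6.11 to 4.94 and Egr2 from 4.21 to 2.54, and with 0.1 CPM they were 8.23, 6.70 and 5.87, so that the size of these ratios depends on the pseudocount and on 3, 9 and 1 counts. The summed level was 323 CPM without replicate 1 and 823 CPM without replicate 2, and leaving out a library leaves no ratio. Without the division by length, 4 of the 10 genes took another place in the order of replicate 1 and 2 in that of replicate 2. No paired analysis was possible because a single group was analysed. Depth limits statements on Fosb and Egr2 in replicate 2, where each had 3 counts or fewer.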
